A study of Saccharomyces cerevisiae with 27 samples.

Results

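Convergent yeast genes whose annotated intervals run into each other at the 3′ end were examined in cells depleted of the sirtuins Hst3 and Hst4, of the exosome subunit Rrp6, or of all 3 proteins. A gene was taken when its neighbour on the 3′ side lay on the other strand and the 2 intervals shared at least 1 bp, while the neighbour on the 5′ side lay on its own strand. The rule used only the position and strand of the intervals in the deposited gene table (build sacCer3). It gave 813 of 5298 genes, which is 15.3%, and all 813 had RNA and DRIP values. These genes form 651 pairs with their 3′ neighbour. In 162 pairs both genes met the rule (324 genes), and in the other 489 pairs the partner had a 5′ neighbour on the other strand.

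Budding yeast genes are closely spaced, and where neighbours converge the transcript of each runs towards the end of the other. Cleavage and polyadenylation fix the mRNA end, and the exosome, with Rrp6 as its nuclear exonuclease, removes transcripts that end early, start on the wrong strand or read past their gene. Hst3 and Hst4 remove acetyl groups from lysine 56 of histone H3, a mark of newly deposited nucleosomes. RNA-DNA hybrids form where a transcript stays paired with its template, and DRIP-seq enriches them with the S9.6 antibody.

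All strains carried the anchor-away system, in which rapamycin carries a protein fused to FRB out of the nucleus, and all, WT included, received rapamycin for 3 h in rich medium at 30 °C. WT is the anchor-away parent, hst34 is hst4-delta with HST3-FRB, rrp6 is RRP6-FRB, and hst34rrp6 is hst4-delta with HST3-FRB and RRP6-FRB. RNA-seq of log-phase cells was made for the 4 strains. For DRIP-seq, WT and hst34 DNA was used either untreated or after RNase H digestion, and each group of either assay has 2 libraries. An RNA library held between 5487526 and 10183415 recovered gene reads. A DRIP library held between 935412 and 2951246, apart from WT 2 with 83303106. The median overlapping gene had 299 to 463 RNA reads per library. The labels do not say that replicate libraries were grown separately, so a p-value here rests on the spread between these samples only. That spread may be technical. In the RNA test of single genes the fit took it wholly from a trend over genes of like level. The p-values and standard errors of that test therefore do not measure the spread of a gene's own libraries.

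HST4 RNA, which should be lost on deletion, was 92.5 and 93.3 per kb for WT and 91.5 and 100.3 for rrp6. It was 9.69 and 0.726 for hst34 and 3.34 and 0 for hst34rrp6, so the deletion labels hold in every library. HST3 RNA was 237 and 321 for WT against 318 and 330 for hst34, and anchor-away removes the protein from the nucleus, not the transcript. RRP6 RNA was 666 and 741 (WT), 353 and 415 (rrp6) and 347 and 423 (hst34rrp6), a log2 fold change of -0.79 in rrp6 against WT (limma adjusted p = 0.00538), which did not pass without WT replicate 2 or either rrp6 library (0.154, 0.265 and 0.0633).

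The overlaps were short and lay mostly beyond the coding sequence. Their length ran from 4 to 1728 bp with a median of 92 bp and quartiles of 52 and 140 bp, and the median overlap took up 6.01% of the gene's interval. In 399 genes it reached 100 bp, and in 34 genes it reached 500 bp. Overlap lengths were whole multiples of 4 bp in 806 of 813 genes, so the interval ends sit on a grid and the length is known only to a few bp. For 807 genes the RefSeq table gave the open reading frame of both partners. In 432 of them (53.5%) the overlap touched neither frame, in 162 it reached into the gene's own frame, in 161 into the partner's and in 52 into both. The median gap between the 2 frames was 187 bp, and in 8 genes the frames themselves overlapped. The median interval was 1528 bp against 1512 bp over all genes.

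**Figure D1:**
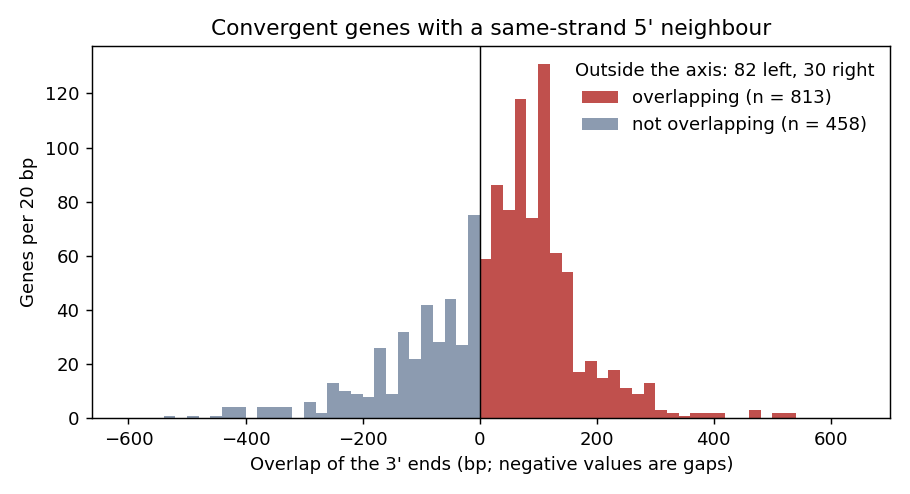
Histogram of the 3′ overlap of the 1271 convergent genes with a 5′ neighbour on their own strand, in bp on the x axis with gaps below 0, and genes per 20 bp on the y axis. The 813 overlapping genes pile up below 160 bp, and the 458 genes that do not overlap lie to the left of 0.

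Of all 1271 convergent genes with a same-strand 5′ neighbour, 64.0% overlapped. The rule's threshold falls inside a continuous distribution: 26 genes overlapped by 4 bp, which was the shortest overlap, and 38 genes stopped 4 bp short of their partner. IDH2, a subunit of mitochondrial isocitrate dehydrogenase, and SIA1 were a pair that overlapped by 4 bp. The 26 genes just inside had a median WT RNA value of 400.3 and 421 per kb, and the 38 just outside had 472 and 509.9. Their median log2 fold changes in rrp6 against WT were 0.01 and -0.08.

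The longest overlap was that of YPS3, which encodes a yapsin aspartyl protease of the cell surface, with YLR120W-A. YPS3 (YLR121C, chromosome XII, 388565 to 390293, minus strand) lay wholly inside the interval of YLR120W-A (388497 to 390417, plus strand). HMS1 (YOR032C) and YOR032W-A shared 1504 bp on chromosome XV, and HMS1, a transcription factor gene of pseudohyphal growth, was wholly covered. Besides YPS3 and HMS1, the genes MF(ALPHA)2, YMR181C and SET6 were wholly covered by their partner, and 18 of the 813 genes were covered over more than 50% of their length. Members were found on both strands (413 plus, 400 minus) and on all 16 chromosomes in the table, from 44 of 425 genes on chromosome XVI to 17 of 68 on chromosome I. Cytosolic ribosomal protein genes, taken by their RPL, RPS and RPP symbols, made up 1.23% of the members and 2.57% of all genes.

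The nested genes show how RNA reads of an overlap were counted. Among the 7 convergent genes in the table that lay wholly inside their partner, 5 had more RNA reads over the 8 libraries than the partner that contains them. YPL199C, a non-member, had 2316 reads inside the interval of CSM4, which had 111. YPS3 had 9220 reads against 4008 for YLR120W-A, and SET6 had 1140 against 828 for ATG29. An interval counted on both strands could not hold fewer reads than a gene inside it, and a nested gene whose shared reads were discarded would hold almost none, so RNA values of the partners were separate per strand in these genes. The sources used here do not give the HTSeq strand setting. In DRIP-seq the containing gene had at least as many reads as the nested gene in 56 of 56 comparisons over libraries. Counting the reads of an overlap for both partners would give this. The containing interval is also the longer one, so the count does not by itself show such sharing.

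Overlapping genes were expressed at about the level of other genes. Their median RNA value was 309 and 346 per kb for the WT libraries, against 314 and 358 over all genes. Convergent genes that did not overlap had medians of 370.2 and 418, and tandem genes, with both neighbours on their own strand, 327 and 372. The quartiles of the overlapping genes in WT 1 were 149 and 712, so the classes overlap over most of their range. The level of a gene said little about that of its partner: across the 651 pairs in WT 1 the Spearman correlation of the log2 values was -0.00, as a description over genes of 1 library that share its depth. In the same library 191 pairs (29.3%) differed by more than 4-fold between the partners after a pseudocount of 58.8 was added to each value.

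Depletion of Rrp6 changed 56 overlapping genes at an adjusted p under 0.05 (limma, adjusted over all 5294 genes tested), 26 upward and 30 downward. That is 6.89% of the members, beside 11.2% of all genes, with 4.53% of all genes higher and 6.63% lower. The share was 14.4% for convergent genes without overlap, of 457 tested, 146 of 1214 tandem genes passed, and 102 of 987 overlapping convergent genes with a 5′ neighbour on the other strand did (10.3%); the difference between classes was not tested. The median log2 fold change of the overlapping genes was 0.01 and that of all genes -0.00. With centred libraries 96 members rose and 127 fell, with edgeR 123 and 117, and with DESeq2 94 and 107. Over all genes 33.3%, 36.1% and 30.6% passed in these runs, beside 27.4%, 29.5% and 24.7% of the members. Both the count and the balance of directions thus depend on the scaling and the tool. The median size of a change, whatever its sign, was 0.17 in the members and 0.19 over all genes.

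**Figure D2:**
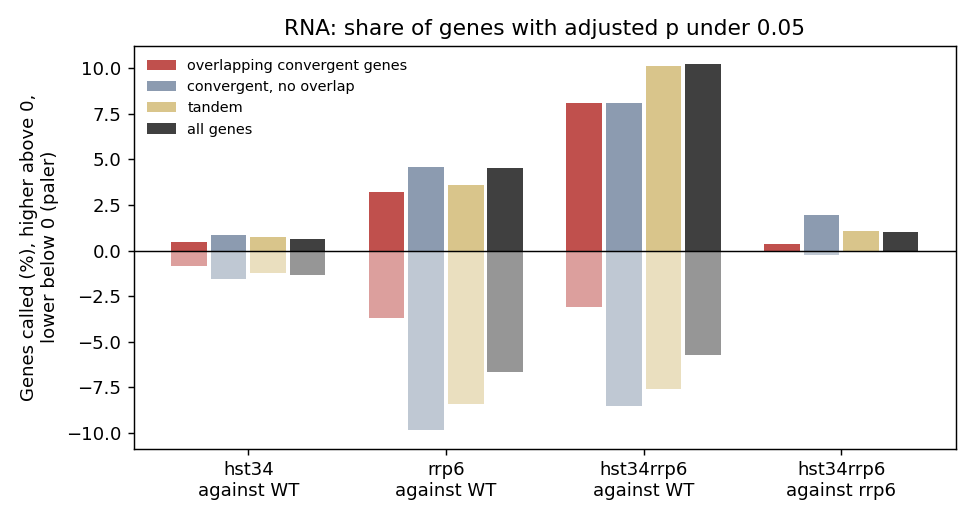
Share of genes (y axis, percent) with an adjusted p under 0.05 and a higher (above 0) or lower (below 0, paler) RNA value in 4 comparisons (x axis), for the overlapping convergent genes, convergent genes without overlap, tandem genes and all genes. In rrp6 against WT the overlapping genes reach 3.20% higher and 3.69% lower.

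HEM4 rose most among the members. It encodes uroporphyrinogen III synthase of haem synthesis (YOR278W, chromosome XV, 842715 to 843739, plus strand). HEM4 RNA was 250.0 and 314 per kb (WT), 294 and 193 (hst34), 1701 and 1854 (rrp6), and 1649 and 1841 (hst34rrp6). The libraries with Rrp6 depleted lay far above all others, and the log2 fold change in rrp6 against WT was 2.43 ± 0.22 (SE, n = 2 libraries per group, limma adjusted p = 2.44e-25). Its partner RFM1, a part of the Sum1 repressor complex, shares 100 bp with it. RFM1 was 103 and 112 for WT against 127 and 154 for rrp6, with a log2 fold change of 0.26 that did not pass the test (limma adjusted p = 0.432).

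SEN2, a subunit of the tRNA splicing endonuclease, had 142 and 198 per kb for WT and 483 and 584 for rrp6. Its log2 fold change was 1.38 ± 0.22 (SE, n = 2 per group), and the groups did not overlap. NGK1, an N-acetylglucosamine kinase gene, had 61.2 and 49.8 for WT and 179 and 213 for rrp6 and changed by 1.15 ± 0.18. SER3, the phosphoglycerate dehydrogenase of serine synthesis, had 823 and 834 for WT and 1554 and 2025 for rrp6, a log2 fold change of 1.05 ± 0.22. DIN7, a mitochondrial nuclease gene, rose by 1.02 ± 0.17 and YHR033W by 0.97 ± 0.22. The partners of these 5 genes, LCL2, VMA6, UTP7, YDR262W and PIH1, had log2 fold changes between -0.30 and 0.16, none of which passed the test. AIR2, an RNA-binding subunit of the TRAMP complex that feeds nuclear RNA to the exosome, was picked out after its values were seen, and it rose by 0.89.

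The members that fell most in rrp6 were YPS3 (-1.71 ± 0.22), YPR172W (-1.31 ± 0.22), the kinase gene VHS1 (-1.21 ± 0.20), SRL3 (-1.19 ± 0.22), the monothiol glutaredoxin gene GRX4 (-1.10 ± 0.22) and YMR181C (-1.08 ± 0.22), each with n = 2 libraries per group. GRX4 had 487 and 683 per kb for WT and 234 and 241 for rrp6, and its partner RAD24, which shares 12 bp with it, had a log2 fold change of 0.38 that did not pass the test (limma adjusted p = 0.148). VHS1 had 382 and 417 for WT and 118 and 164 for rrp6. SRL3, a high-copy suppressor of a lethal rad53 deletion, had 579 and 922 for WT and 242 and 342 for rrp6. YPR172W had 561 and 859.8 for WT and 235 and 255 for rrp6. In all of these the rrp6 libraries lay below both WT libraries.

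Of these 12 genes, SER3 and YHR033W lost the call without rrp6 replicate 2 (limma adjusted p = 0.0812 and 0.0746), and the other 10 stayed past the threshold without any single library. The count of 56 members fell without any single WT or rrp6 library, and so did the count over all genes. Both counts rose without either hst34 library, which enter only through the common estimate of the spread. The member median ran from -0.06 without rrp6 replicate 2 to 0.09 without WT replicate 2. That of all genes ran from -0.08 without WT replicate 1 to 0.07 without WT replicate 2.

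Most overlapping partners did not change together. In rrp6 against WT both genes passed the test in 6 of the 651 pairs (0.922%), beside 1.8% of all adjacent gene pairs. A single gene passed in 94 pairs (14.4%), beside 18.7% of all adjacent pairs. The 6 pairs were all looked at after their values were seen, and in 4 of them the partners moved in opposite directions. Over all adjacent pairs, 46 of the 95 with both genes called were opposed, and the difference was not tested. The Spearman correlation between the partners' log2 fold changes was -0.03 across 651 pairs, as a description over genes of the same 4 libraries.

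**Figure D3:**
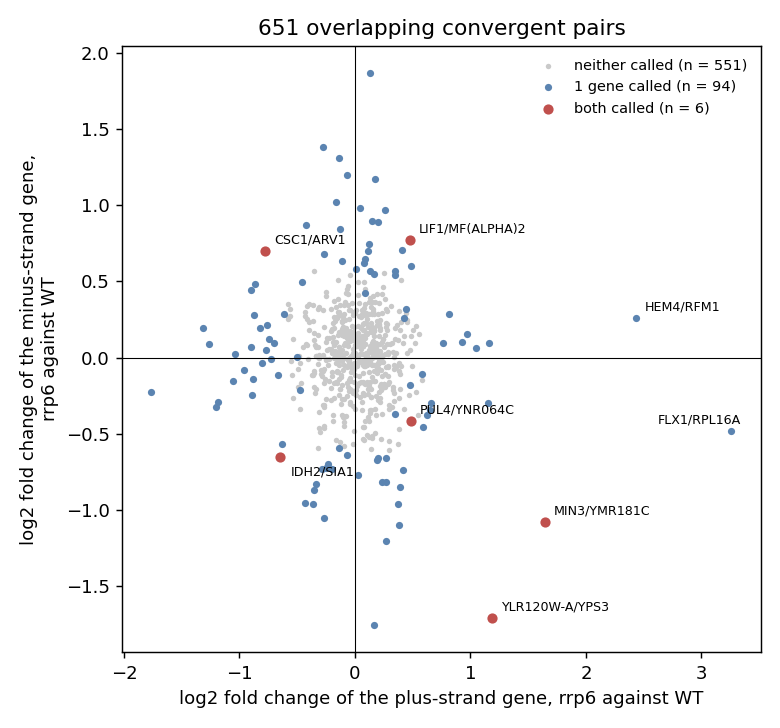
Log2 fold change of the plus-strand gene (x axis) against that of the minus-strand gene (y axis) in rrp6 against WT, 1 point for each of 651 overlapping pairs. Red points mark the 6 pairs in which both genes passed the test, and blue points the 94 in which 1 gene did; YLR120W-A/YPS3 and MIN3/YMR181C lie at the lower right, with the plus-strand gene up and the minus-strand gene down.

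YPS3 and YLR120W-A moved in opposite directions and met at nearly equal levels in rrp6. YPS3 RNA was 1629.6 and 1687 per kb (WT), 748 and 454 (hst34), 413 and 526 (rrp6), and 681 and 702 (hst34rrp6). YLR120W-A, on the other strand of the same 1728 bp, was 150.0 and 188 (WT), 206 and 210.2 (hst34), 412 and 506 (rrp6), and 525 and 510.5 (hst34rrp6). YPS3 was therefore high in WT alone, and YLR120W-A was high where Rrp6 was depleted. The log2 fold change of YLR120W-A was 1.18 in rrp6 (limma adjusted p = 1.56e-06) and 0.23 in hst34, where it did not pass the test (limma adjusted p = 0.932).

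YMR181C and MIN3 behaved alike on chromosome XIII, where YMR181C (623477 to 624261, minus strand) lies wholly inside the MIN3 interval (623433 to 626273, plus strand). YMR181C had 788 and 823 per kb (WT), 924 and 598 (hst34), 323 and 381 (rrp6), and 494 and 613 (hst34rrp6). MIN3 had 53.5 and 78.0 (WT), 94.7 and 58.5 (hst34), 309 and 350.04 (rrp6), and 340.3 and 385 (hst34rrp6). The WT and rrp6 libraries did not overlap in either gene, and MIN3 rose by 1.65 on the log2 scale (limma adjusted p = 3.75e-15). The other opposed pairs were CSC1, which fell (-0.78), with ARV1, which rose (0.70), and PUL4, which rose (0.48), with YNR064C, which fell (-0.41). YNR064C was low throughout, at 21.3 and 43.6 for WT and 10.2 and 8.17 for rrp6. LIF1 and MF(ALPHA)2 rose together, and IDH2 and SIA1 fell together. The rise of MF(ALPHA)2 rested on few reads, 0 and 1 for WT and 10 and 17 for rrp6. YLR120W-A, YPS3, MIN3, YMR181C and MF(ALPHA)2 passed the test without any single library. CSC1, ARV1, PUL4, YNR064C, LIF1, IDH2 and SIA1 each lost the call without WT replicate 2 and without either rrp6 library (limma adjusted p = 0.0692 to 0.533), so the 2 opposed pairs that held in all of these were those with a wholly nested gene.

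**Figure D4:**
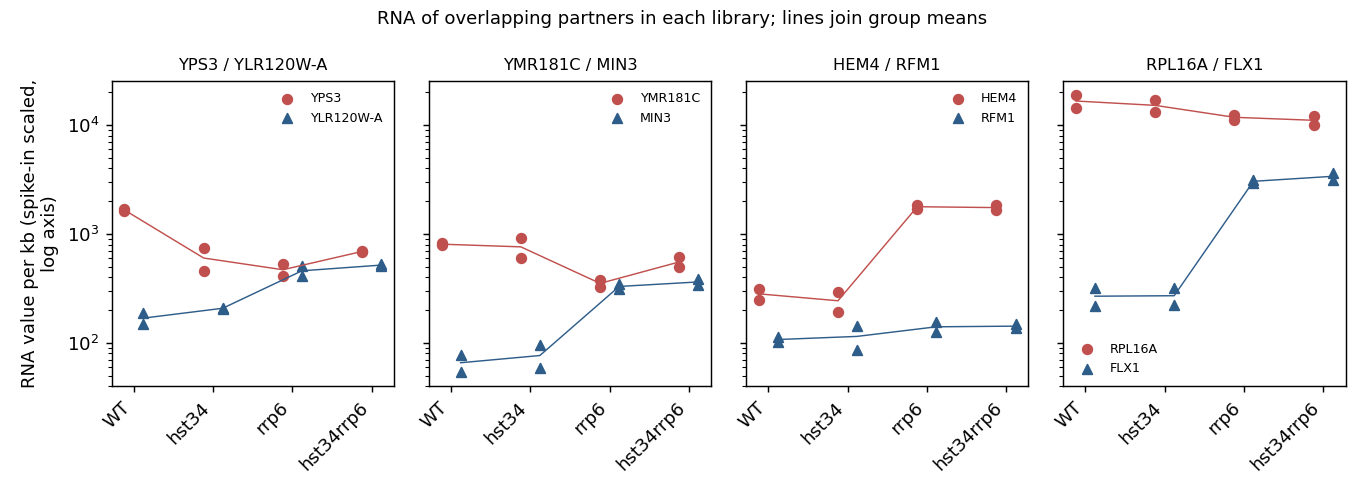
RNA value per kb (log axis) in each of the 2 libraries of WT, hst34, rrp6 and hst34rrp6 (x axis) for 4 overlapping pairs, with lines through the group means. YPS3 and YMR181C fall in rrp6 while YLR120W-A and MIN3 rise; HEM4 and FLX1 rise in rrp6, while RFM1 and RPL16A did not pass the test there.

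The balance of the partners within a library, as the log2 ratio after the pseudocount of 58.8 was added to both values, was tested over all 5276 adjacent pairs. It depends little on the library's scale where both genes are well above the pseudocount, and it understates the ratio where one is low. In rrp6 against WT it changed in 224 of 651 overlapping pairs (34.4%), beside 37.3% of all adjacent pairs, and in hst34 against WT in 54 (8.29%), beside 9.84%. The largest change in rrp6 was that of FLX1, a mitochondrial FAD transporter gene, over RPL16A, a ribosomal protein gene that is the member of this pair. FLX1 was 220.1 and 317 per kb for WT and 2951 and 3132 for rrp6, and RPL16A was 14316 and 18878 against 11196 and 12331. Their log2 ratio after the pseudocount was -5.69 and -5.66 in WT and -1.90 and -1.96 in rrp6, a change of 3.74 ± 0.12 (SE, limma adjusted p = 9.16e-11). RPL16A has a close copy in the genome, RPL16B, so its value is uncertain where reads fit both.

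On the same scale the YLR120W-A to YPS3 ratio changed by 2.89 ± 0.18 in rrp6, from -3.02 and -2.82 in WT to -0.00 and -0.05, and that of MIN3 to YMR181C by 2.72 ± 0.14. In hst34 against WT the largest changes were in YLR120W-A over YPS3 (1.65 ± 0.18), ARG3 over TRL1 (1.05 ± 0.14) and PHM8 over KRE29 (-1.04 ± 0.21). The rrp6 count fell without either rrp6 library, and the hst34 count fell without any single rrp6 or hst34rrp6 library. The share of all adjacent pairs in these runs is not given here. Each named ratio in these 2 comparisons passed the test without any single library, though the change in PHM8 over KRE29 was -0.62 without hst34 replicate 2.

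In hst34 against WT, 4 rose and 7 fell, together 1.35% of the members, beside 2% of all genes, with 0.661% of all genes higher and 1.34% lower. With centred libraries 24 members rose and 30 fell, with edgeR 24 and 45, and with DESeq2 18 and 36. Over all genes 7.52%, 10.8% and 8.33% passed in these runs, beside 6.64%, 8.49% and 6.64% of the members. The count thus depends on the scaling and the tool. The medians were -0.07 in the members and -0.08 in all genes. The 2 hst34 libraries differed in their overall level, with member medians of 366 and 255 per kb. Without hst34 replicate 1 the median was -0.27 in the members and -0.26 in all genes. Without hst34 replicate 2 it was 0.13 and 0.10. The direction of the median thus rests on which hst34 library is kept, in the members and in all genes. The count of calls fell without any single WT, rrp6 or hst34rrp6 library, in the members and over all genes.

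YPS3 fell by 1.42 on the log2 scale (SE 0.22, n = 2 per group, limma adjusted p = 8.18e-08), and it passed the test without any single library. LEU2, of leucine synthesis, had 357 and 478 per kb (WT), 222 and 148 (hst34), 229 and 339.9 (rrp6) and 314 and 497 (hst34rrp6). Its log2 fold change in hst34 was -0.97 ± 0.21; the labels do not give the nutritional markers of the strains. SET6 had 170.4 and 205 for WT and 80.8 and 62.8 for hst34 (-0.92 ± 0.19), and its container ATG29, an autophagy gene, had a log2 fold change of 0.01. VHS1 fell by 0.91, the UBX-domain gene UBX6 by 0.79 and KRI1, needed for small ribosomal subunit assembly, by 0.75. The last member that fell was HMS1, with 172 and 168 per kb for WT and 104 and 68.8 for hst34 (-0.67 ± 0.18), while YOR032W-A, which contains it, had 22.4 and 37.4 against 38.4 and 42.0 (0.16, limma adjusted p = 0.911). Of the 5 wholly covered members, YPS3, SET6 and HMS1 thus fell in hst34, MF(ALPHA)2 rose and YMR181C did not pass the test, as seen after the values were known. HMS1 lost its call without WT replicate 1 or 2, hst34 replicate 2 or rrp6 replicate 1 (limma adjusted p = 0.183, 0.188, 0.158 and 0.055). LEU2, SET6 and VHS1 lost the call without WT replicate 2 (limma adjusted p = 0.291, 0.0838 and 0.0893), VHS1 also without hst34 replicate 2 (limma adjusted p = 0.0576), and UBX6 and KRI1 lost it without 6 of the 8 libraries each.

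The members that rose in hst34 were DDR2, a stress-induced gene (0.78 ± 0.22), ARG3, the ornithine carbamoyltransferase of arginine synthesis (0.75 ± 0.16), SUE1 (0.52 ± 0.15) and MF(ALPHA)2, a minor alpha-factor gene (0.37 ± 0.11), each with n = 2 per group. ARG3 had 37.1 and 56.1 per kb (WT), 135 and 102 (hst34), 55.5 and 57.9 (rrp6), and 150.3 and 163 (hst34rrp6). It was thus high in all 4 libraries without Hst3 and Hst4, and its partner TRL1, the tRNA ligase, had log2 fold changes of -0.30 and -0.03 in hst34 against WT and hst34rrp6 against rrp6. ARG3 lost its call in hst34 against WT without WT replicate 1 (limma adjusted p = 0.183). DDR2 and SUE1 lost theirs without 6 and 6 of the 8 libraries. MF(ALPHA)2 rested on 0 and 1 reads in WT and 5 and 9 for hst34, lost the call without 6 of the 8 libraries, and did not pass the test with edgeR (adjusted p = 0.107).

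With all 3 proteins depleted, 66 members rose and 25 fell against WT, together 11.2% of the members, beside 15.9% of all genes, of which 10.2% rose and 5.7% fell. The medians were 0.12 in the members and 0.11 in all genes, so about the same offset applied to both. With each library centred on its median the split was 109 higher and 169 lower, with edgeR 154 and 154, and with DESeq2 114 and 140. Over all genes 38.7%, 42.1% and 35.6% passed in these runs, beside 34.2%, 37.9% and 31.2% of the members. The excess of rises thus depends on the spike-in scale. Centring moved the median of all genes from 0.11 to -0.02. The count of 91 fell without any single WT or hst34rrp6 library and rose without either hst34 library, and so did the count over all genes. The member median ran from 0.02 without hst34rrp6 replicate 2 to 0.22 without hst34rrp6 replicate 1. That of all genes ran from 0.01 to 0.20 in the same runs. This comparison shares the WT libraries with the 2 above.

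The members that rose most were HEM4 (2.41 ± 0.22), SEN2 (1.40 ± 0.22), NGK1 (1.31 ± 0.18), DIN7 (1.25 ± 0.17), DDR2 (1.12 ± 0.22) and DPA10 (1.11 ± 0.13), each with n = 2 per group. DPA10 had 14.8 and 8.65 per kb (WT), 27.9 and 8.35 (hst34), 55.4 and 63.5 (rrp6) and 90.9 and 94.9 (hst34rrp6). The members that fell most were YPS3 (-1.19 ± 0.22), the ethanol acyltransferase gene EHT1 (-0.96 ± 0.22), the chitinase gene CTS1 (-0.94 ± 0.21), the aldolase gene FBA1 (-0.94 ± 0.18), YJR015W (-0.92 ± 0.22) and GRX4 (-0.90 ± 0.22). FBA1, among the most abundant transcripts, had 74040.3 and 94413 (WT), 75476 and 57638 (hst34), 48867 and 51788 (rrp6), and 43079 and 44259.7 (hst34rrp6). DDR2 lost the call without hst34rrp6 replicate 2 (limma adjusted p = 0.053), GRX4 without WT replicate 2 (0.13), CTS1 without hst34rrp6 replicate 1 (0.0601), and EHT1 and YJR015W without either of WT replicate 2 (0.102 and 0.107) and hst34rrp6 replicate 1 (0.0531 and 0.0651). YPS3 with YLR120W-A was 1 of 10 pairs in which both genes passed the test (1.54% of pairs, beside 3.3% of all adjacent pairs). Over all adjacent pairs 75 of 174 such pairs were opposed, beside 5 of these 10. In the other 9 at least 1 of the genes lost its call without hst34rrp6 replicate 2 or replicate 1.

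Against rrp6, hst34rrp6 differed in 3 overlapping genes, all higher (0.369% of the members, beside 1.04% of all genes, with 1% higher and 0.0378% lower). SRL3 was 242 and 342 per kb for rrp6 and 557 and 716 for hst34rrp6 (0.99 ± 0.22, limma adjusted p = 0.00141). DDR2 was 375 and 350.4 against 611 and 905 (0.93 ± 0.22), and ARG3 changed by 0.90 ± 0.16 (limma adjusted p = 7.13e-06). ARG3 kept its call without any single library. SRL3 lost it without rrp6 replicate 1 or hst34rrp6 replicate 2 (limma adjusted p = 1 and 0.705), and DDR2 without rrp6 replicate 1 or 2 or hst34rrp6 replicate 2 (0.295, 0.356 and 1). The count rose without either hst34 library and fell without rrp6 replicate 1 or hst34rrp6 replicate 2, in the members and over all genes. Centred libraries gave 6 higher and 0 lower, edgeR 12 and 3, and DESeq2 11 and 11. Over all genes 1.19%, 3.40% and 4.29% passed in these runs, beside 0.738%, 1.85% and 2.71% of the members.

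The partner ratio changed between hst34rrp6 and rrp6 in 10 of 651 pairs, beside 1.54% of all adjacent pairs, led by SRL3 over SRP40 (1.04 ± 0.16), CTF13 over SNO1 (-1.02 ± 0.13) and ARG3 over TRL1 (0.93 ± 0.14). SNO1, a pyridoxine metabolism gene, had 189 and 218 per kb (WT), 282 and 252 (hst34), 90.9 and 89.0 (rrp6), and 227 and 293 (hst34rrp6), so it was low in rrp6 alone. The count of 10 fell in each of the 4 runs that left out a single rrp6 or hst34rrp6 library. Each named ratio lost its call in at least 1 of these: SRL3 over SRP40 without rrp6 replicate 1 or hst34rrp6 replicate 2 (limma adjusted p = 0.0909 and 0.12), CTF13 over SNO1 without hst34rrp6 replicate 2 (0.0516), and ARG3 over TRL1 without each of the 4 (0.0516 to 0.0687).

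The effect of losing Hst3 and Hst4 differed with and without Rrp6, by the interaction term, in 6 members (0.738%, beside 1.19% of all genes, with 1.15% higher and 0.0378% lower), of which 5 were positive and 1 negative. The positive genes were YPS3, SRL3, LEU2, VHS1 and SET6, and the negative gene was MF(ALPHA)2. YPS3 fell by 1.42 in hst34 against WT, while its values in hst34rrp6 lay above those in rrp6, and the difference of the 2 effects was 1.93 ± 0.31 (SE, limma adjusted p = 4.41e-07). The median interaction was 0.16 in the members and 0.17 over all genes. Centred libraries gave 9 positive and 0 negative calls, edgeR 14 and 2, and DESeq2 13 and 5. Over all genes 1.87%, 3.10% and 3.17% passed in these runs, beside 1.11%, 1.97% and 2.21% of the members. The count fell without WT replicate 2, rrp6 replicate 1 or hst34rrp6 replicate 2, in the members and over all genes. Without hst34 replicate 1 it rose in both.

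The length of the overlap was compared with the calls in 4 groups cut at the quartiles. In rrp6 against WT, 14 of 222 genes with overlaps of 4 to 52 bp passed the test (6.31%), 8 of 192 with 60 to 92 bp (4.17%), 16 of 212 with 100 to 140 bp (7.55%), and 18 of 187 with 148 to 1728 bp (9.63%). In hst34rrp6 against WT the shares were 10.4%, 10.4%, 12.7% and 11.2% in the same order, with no steady rise. In hst34 against WT the counts were 1, 1, 1 and 8. Over all genes the shares were 11.2%, 15.9% and 2% in these 3 comparisons. The longest group also had the lowest median WT RNA value, 252 and 294 per kb against 367 and 405 in the shortest group; the part of expression level in these shares was not tested.

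Of 26 factors of cleavage, polyadenylation and transcription termination, 5 rose in rrp6 against WT and none fell, beside 4.53% of all genes higher and 6.63% lower (limma; the list's median was 0.27 beside -0.00 for all genes). They were NRD1 (2.63), SSU72 (1.09), REF2 (1.05), HRP1 (0.96) and PCF11 (0.64). NRD1, the RNA-binding subunit of the termination complex for short noncoding transcripts, had 562 and 579 per kb (WT), 791 and 742 (hst34), 3679 and 3980.2 (rrp6), and 3876 and 4933 (hst34rrp6). In hst34rrp6 against WT 9 rose and none fell, beside 10.2% of all genes higher and 5.7% lower, the same 5 with MPE1, PTI1, RTT103 and NAB3. NRD1, SSU72 and REF2 passed in both comparisons without any single library. HRP1 lost its call in rrp6 without rrp6 replicate 2 (limma adjusted p = 0.0863), and PCF11 without each WT, rrp6 and hst34rrp6 library (0.051 to 0.449). In hst34rrp6, PCF11, MPE1, PTI1, RTT103 and NAB3 lost theirs without hst34rrp6 replicate 2 (0.16 to 0.331), PTI1, RTT103 and NAB3 also without WT replicate 2 (0.051 to 0.141), and MPE1, PTI1 and NAB3 without WT replicate 1 (0.0775 to 0.354). In hst34 against WT and in hst34rrp6 against rrp6 no factor passed the test. FIP1, PFS2 and SEN1 are themselves members, and their log2 fold changes in rrp6 were 0.23, 0.00 and 0.41, none past the threshold. RNA15, SWD2, RAI1 and RTT103 also overlap a convergent partner, but their 5′ neighbour leaves them outside the rule. Their log2 fold changes in rrp6 were 0.20, -0.01, 0.29 and 0.51, none past the threshold. RTT103 is among the 9 factors that rose in hst34rrp6 (0.75). NRD1 is no member.

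DRIP signal per kb over the overlapping genes was near that of all genes. The member median was 101 and 89.8 per kb (WT), 109 and 84.5 (WT with RNase H), 87.6 and 84.6 (hst34), and 106 and 89.5 (hst34 with RNase H). Over all genes it was 94.9 and 78.0, 103 and 75.8, 82.0 and 78.5, and 103 and 88.8. The member median lay above that of all genes in each of the 8 libraries, by 0.01 to 0.20 on the log2 scale, and that of tandem genes lay below the member median in each of the 8. Convergent genes without overlap had medians above those of the overlapping genes in 7 of the 8, WT 2 being the exception. The 987 overlapping convergent genes with a 5′ neighbour on the other strand lay below all genes in 4 of the 8 libraries. They stayed within -0.03 to 0.04 of all genes throughout. In replicate 2 of hst34 with RNase H they and the members both lay 0.01 above all genes. The difference between these classes was not tested. The excess of the members was also present in the RNase H libraries. It was 0.08 and 0.16 for WT with RNase H and 0.03 and 0.01 for hst34 with RNase H.

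**Figure D5:**
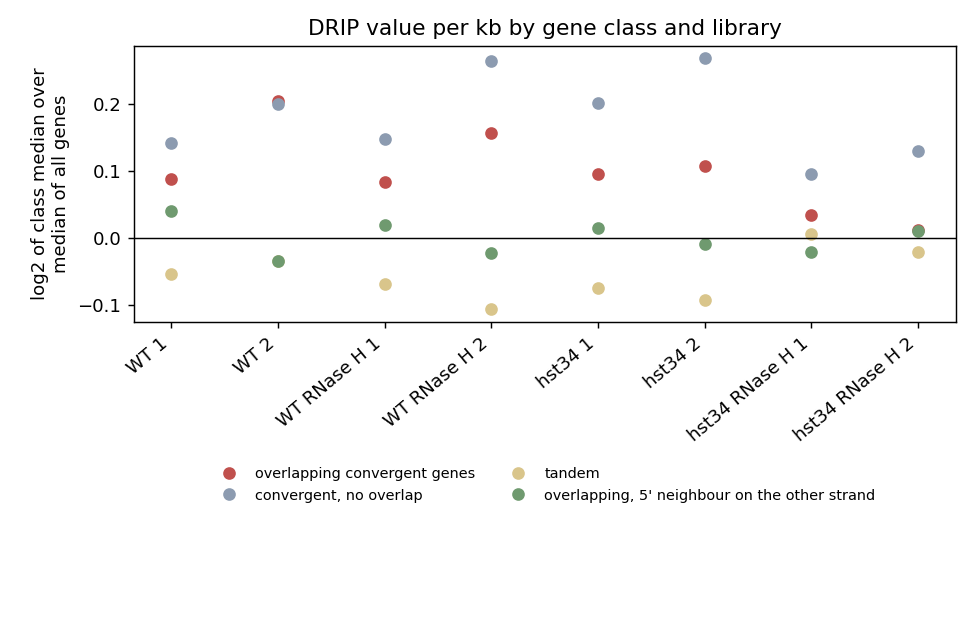
Log2 of the median DRIP value per kb of each gene class over that of all genes (y axis) in each of the 8 DRIP libraries (x axis). Overlapping convergent genes (red) lie between 0.01 and 0.20 in all libraries, RNase H libraries included.

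No overlapping gene passed in DRIP signal at an adjusted p under 0.05 by limma, beside 0% of all genes. This held in hst34 against WT, with RNase H in WT and with RNase H in hst34. The fits were unpaired and count the difference between WT 1 and WT 2 as spread. For RNase H in WT the lack of calls therefore cannot show an absence of change. At an unadjusted p under 0.05 there were 28 members (3.44%, beside 2.64% of all genes) in hst34 against WT. There were 0 (beside 0% of all genes) with RNase H in WT, and 62 (7.63%, beside 10.2% of all genes) with RNase H in hst34. The tool edgeR gave 0 members in each comparison, and DESeq2 gave 0, 0 and 5. All 5 were lower, and they are 0.615% of the members, beside 0.925% of all genes. The member medians were -0.08, 0.07 and 0.31 against -0.02, 0.07 and 0.34 over all genes, so the members moved with all genes. The deposited values of a DRIP library add up to between 902159 and 1134347, and the basis of this scaling is not given. Untreated hst34 libraries had totals of 924001 and 902159, while the digested ones reached 1131849 and 1113539. The WT totals were 1003424 and 999637 untreated, against 1134347 and 1006619 after digestion. The part of these totals in the medians was not tested. A loss of hybrids over the whole genome was not tested either, because the level of medians scaled in this way cannot show whether it occurred. In WT the RNase H median of the members was -0.03 with edgeR and ran from -0.17 without WT RNase H replicate 1 to 0.26 without WT RNase H replicate 2. In hst34 it was 0.08 with centred libraries, -0.00 with edgeR and 0.03 with DESeq2, and that of all genes 0.12, 0.04 and 0.07. With only the hst34 groups in the fit, 154 members passed in the RNase H comparison, 121 higher and 33 lower. That is 18.9% of the members, beside 1061 of all 5298 genes, which is a slightly larger share.

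The 2 untreated WT DRIP libraries differed in profile as well as in depth. Across the 813 members the Spearman correlation of the values per kb was 0.67 between WT 1 and WT 2 and 0.99 between WT 2 and its RNase H library, and it was 0.85 between the hst34 libraries; these describe genes of libraries with unequal depth. HEM4 shows the scatter: its DRIP value per kb was 39.5 and 104 (WT), 73.1 and 75.1 (WT with RNase H), 68.4 and 49.6 (hst34), and 88.6 and 90.8 (hst34 with RNase H). YPS3 had 80.3 and 75.0 (WT) and 64.2 and 42.8 (hst34), and FBA1 470.2 and 252 (WT) and 627 and 619.5 (hst34). Across the 651 pairs the DRIP values per kb of the partners had Spearman correlations of 0.20 to 0.35 over the libraries. They were 0.24 to 0.36 for the 249 overlapping convergent pairs without a member and 0.09 to 0.29 for 43 overlapping divergent pairs. For convergent pairs without overlap they were -0.04 to 0.06. Reads of an overlap may have been counted for both partners, and the part of this in the correlations was not tested.

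Break-seq labels DNA ends, and its deposited list has 239 peaks called for hst34 against WT as 1 list. Of the 813 overlapping genes, 102 (12.5%) shared at least 1 bp with a peak, as did 126 of 987 overlapping genes with a 5′ neighbour on the other strand (12.8%). The share was 9.39% among convergent genes without overlap, 8.40% among tandem genes and 10.2% over all 5298 genes; the difference was not tested, because neighbouring genes share peaks.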

How the data were processed

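Of 27 samples, 20 were used (8 for RNA, 8 for DRIP, 4 for Break-seq); the 7 NET-seq samples are not analysed here. Per the submitters' processing notes, reads were processed with Bowtie2, TopHat2, SAMtools and HTSeq 0.9.1 (RNA), or Bowtie2 and bedtools (DRIP), on sacCer3. Per the title of the deposited table, the RNA signal is normalised to a Schizosaccharomyces pombe spike-in (1:6) and gene length. The deposited DRIP signal is reads per interval times a constant per library, and was divided here by interval length where given per kb. All values (100%) were whole reads times such a constant, within 0.01. Read numbers give counting error only.

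Genes were ordered by chromosome and start. Of 5298 IDs, 5287 matched RefSeq, the source of symbols and open reading frames. The log2(value + pseudocount), with 58.8 for RNA and 12.5 for DRIP, was tested by limma-trend (limma 3.58.1 under R 4.3.3) for genes above 0 in at least 2 libraries, with 8 libraries per fit and Benjamini-Hochberg adjustment at 0.05 over all genes or adjacent pairs. Fold changes are on that scale, which understates changes of low genes, and ± is limma's standard error. The fits were tested on simulated data. The RNA spread is pooled over genes.

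Named are, for each comparison and direction, the 6 members called with the largest change whose groups do not overlap, their partners, the longest and shortest overlaps, the 3 largest ratio changes per comparison, HST4, HST3, RRP6 and called termination factors. Members and lists were chosen with earlier results of these data known. Alternatives were edgeR 4.0.16, DESeq2 1.42.0, pseudocount, filter, scaling, block, single libraries left out and the membership rule.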

Additional observations from a re-analysis of the deposited data

Results flagged for a closer look

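In 6 overlapping genes the RNA effect of losing Hst3 and Hst4 differed with and without Rrp6 by the limma interaction term, given here as the log2 effect with Rrp6 depleted minus that without. It was 1.93 for YPS3, 1.48 for SRL3, 1.40 for LEU2, 1.23 for VHS1, 1.10 for SET6 and -0.67 for MF(ALPHA)2. The first 5 were lower in both hst34 libraries than in both WT libraries, except SRL3, which was 579 and 922 per kb for WT and 628 and 405 for hst34. Without WT replicate 2, rrp6 replicate 1 or hst34rrp6 replicate 2, SRL3, LEU2, VHS1 and SET6 did not pass the test, and YPS3 passed without any single library. MF(ALPHA)2 had 57 reads in all 8 libraries together, and edgeR gave an adjusted p of 0.184.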

How the results depend on the processing

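Values here are the share of overlapping genes, or pairs, past the threshold. Among 52 named changes, 26 kept direction and call under each alternative run, and none reversed. In hst34 against WT the share was 1.35%. It was 0.615% with the replicate block, 0.369% with only the groups compared and 6.64% with centred libraries. It was 8.49% with edgeR, 6.64% with DESeq2 and 2.26% at overlaps of 100 bp or more. Over all genes the block, groups compared, centred, edgeR and DESeq2 runs gave 1.15%, 0.567%, 7.52%, 10.8% and 8.33%. In rrp6 against WT it was 6.89%, against 14.6% with only the groups compared, 27.4% centred, 29.5% with edgeR and 24.7% with DESeq2. Over all genes these were 11.2%, 20.2%, 33.3%, 36.1% and 30.6%. In hst34rrp6 against WT it was 11.2%, against 34.2% centred, 37.9% with edgeR and 31.2% with DESeq2. Over all genes these were 15.9%, 38.7%, 42.1% and 35.6%. In hst34rrp6 against rrp6 it was 0.369%, against 0.615% with a smaller pseudocount, 1.35% with only the groups compared and 0.738% centred. It was 1.85% with edgeR, 2.71% with DESeq2 and 0.611% with any 5′ neighbour. Over all genes the main, pseudocount, groups compared, centred, edgeR and DESeq2 runs gave 1.04%, 1.17%, 3.21%, 1.19%, 3.40% and 4.29%. The interaction share was 0.738%, against 1.97% with edgeR, 2.21% with DESeq2 and 1.25% at overlaps of 100 bp or more. Over all genes the main, edgeR and DESeq2 runs gave 1.19%, 3.10% and 3.17%. For DRIP with RNase H in hst34 it was 0%, against 18.9% with only the groups compared and 0.615% with DESeq2. Over all genes the main fit gave 0%, the groups compared 1061 of 5298 genes and DESeq2 0.925%. In the last 2 runs the share of all genes was thus larger than that of the members. The partner ratios gave 8.29% in hst34 against WT and 1.54% in hst34rrp6 against rrp6, and 3.38% and 9.37% with only the groups compared. The main fits gave 9.84% and 1.54% of all adjacent pairs. With only the groups compared the share of all adjacent pairs is not given here, so the move cannot be assigned to the overlapping pairs. The cause of these moves was not tested. Leaving out single libraries gave 0.246% to 7.87% (hst34 against WT), 2.58% to 14.4% (rrp6 against WT), 3.81% to 21.0% (hst34rrp6 against WT), 0.123% to 1.23% (hst34rrp6 against rrp6) and 0.123% to 4.06% (interaction). For the partner ratios it gave 4.92% to 7.37%, 19.7% to 37.3% and 0% to 2.30%. The replicate block gave 40 members in rrp6 against WT and 64 in hst34rrp6 against WT, where the fit without it gave 56 and 91; it moved only the hst34 count by over 1.5 times. Deviations of same-numbered libraries correlated at -0.20 to 0.11 in RNA and 0.12 to 0.94 in DRIP. With 2 numbers and no shared culture or batch in the labels, the main fits are unpaired, in DRIP too. In WT the same-numbered libraries with and without RNase H deviated alike (correlation 0.94, against 0.12 in hst34). The unpaired fit therefore counts the difference between WT 1 and WT 2 as spread. Its lack of calls for RNase H in WT cannot show an absence of change, and a paired fit of the WT libraries alone was not run. With the block DRIP still had 0 members called. At an unadjusted p under 0.05 it had 74, 2 and 140 members (hst34 against WT, RNase H in WT, RNase H in hst34). These are 9.10%, 0.246% and 17.2% of the members, beside 8.72%, 0.0566% and 19.4% of all genes. The fit without the block had 28, 0 and 62 members (3.44%, 0% and 7.63%), beside 2.64%, 0% and 10.2% of all genes. In DRIP, 1 WT library stood apart from the other in depth and profile, and the spread (a median of 0.47 on the log2 scale, 0.18 in RNA) limits what could be detected.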
